A study of Homo sapiens with 414 samples.

Results

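A set of genes that make, clean up or degrade the deoxynucleotides used for DNA synthesis were followed in single LNCaP cells after siRNA knockdown of SULT2B1. They were picked by name and not by a measured value, but with earlier results of these data known. They are RRM1, RRM2, RRM2B, TYMS, TK1, DUT, DCK, SAMHD1 and TYMP, 9 of the 36135 genes in the count table. All 9 passed the filter on low counts. LNCaP is an androgen-responsive epithelial line from a human prostate carcinoma. The knockdown cells received an siRNA against SULT2B1, a sterol sulfotransferase (supplier IDT), and the control cells a non-targeting siRNA (supplier Dharmacon), so the target and the supplier of the siRNA cannot be told apart. Both arms were grown on poly-L-lysine, harvested 48 h after transfection and captured as live single cells on a Fluidigm C1 plate in 3 batches, with no further treatment named in the labels. The 192 knockdown cells (66, 65 and 61 in batches 1, 2 and 3) and 209 control cells (76, 66 and 67) were summed to 1 library for each arm and batch, n = 3 per arm. The labels do not say whether each batch was its own culture, and the p-values cover only the spread between batches, which may be technical.

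Ribonucleotide reductase turns ribonucleotides into deoxynucleotides and is built from the large subunit RRM1 and a small subunit, either RRM2, which is made in S phase and destroyed in mitosis, or RRM2B, which is induced by p53 and serves cells outside S phase. Thymidylate is made de novo by TYMS or salvaged by TK1, DUT removes dUTP so that uracil does not enter DNA, and DCK salvages deoxycytidine and purine deoxynucleosides. SAMHD1 splits deoxynucleotide triphosphates and is known for restricting retroviruses, and TYMP breaks thymidine down.

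The promoters of the genes that changed, with TK1 beside them, are shown because RRM2, TK1 and SAMHD1 hold repeated CCAAT words and DCK holds none. The sequences are from RefSeq (GRCh38.p14), 300 bases that run from 250 before to 50 after the most downstream listed start, written in the direction of the gene. RefSeq windows were matched for 8 of the 9 genes, and RRM2B was not among them. Capitals mark CCAAT (or ATTGG on the other strand) and the E2F words TTTCCCGC, TTTCGCGC, TTTGCCGC and TTTGGCGC on either strand.
RRM2, chr2:10122489-10122788, plus strand: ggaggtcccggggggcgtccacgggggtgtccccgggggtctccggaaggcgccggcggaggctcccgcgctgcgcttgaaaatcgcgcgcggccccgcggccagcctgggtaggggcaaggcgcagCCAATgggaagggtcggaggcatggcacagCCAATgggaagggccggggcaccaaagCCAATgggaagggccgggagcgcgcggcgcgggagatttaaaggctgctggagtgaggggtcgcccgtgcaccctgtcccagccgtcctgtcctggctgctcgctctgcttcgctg
TK1, chr17:78187003-78187302, minus strand: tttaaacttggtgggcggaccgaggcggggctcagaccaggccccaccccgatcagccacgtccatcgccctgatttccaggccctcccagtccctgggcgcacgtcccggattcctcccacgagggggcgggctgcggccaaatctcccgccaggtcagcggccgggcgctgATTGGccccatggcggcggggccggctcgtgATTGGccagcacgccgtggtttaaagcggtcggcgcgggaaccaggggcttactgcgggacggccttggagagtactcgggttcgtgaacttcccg
DCK, chr4:70993399-70993698, plus strand: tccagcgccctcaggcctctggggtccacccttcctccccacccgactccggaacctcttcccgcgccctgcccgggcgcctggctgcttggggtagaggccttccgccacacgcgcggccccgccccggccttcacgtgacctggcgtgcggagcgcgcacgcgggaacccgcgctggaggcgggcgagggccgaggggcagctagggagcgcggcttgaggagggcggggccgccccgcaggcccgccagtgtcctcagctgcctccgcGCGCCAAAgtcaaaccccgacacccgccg
SAMHD1, chr20:36951659-36951958, minus strand: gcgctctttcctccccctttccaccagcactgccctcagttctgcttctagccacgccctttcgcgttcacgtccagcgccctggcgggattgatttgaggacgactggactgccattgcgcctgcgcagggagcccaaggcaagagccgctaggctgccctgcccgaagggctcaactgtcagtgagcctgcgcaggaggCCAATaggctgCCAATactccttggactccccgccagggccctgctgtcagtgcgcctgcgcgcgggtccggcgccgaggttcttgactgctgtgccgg
The RRM2 window held 3 CCAAT words, beginning 123, 93 and 66 bases before the start, and the TK1 window held 2, beginning 77 and 46 bases before it. SAMHD1 also had 2, at 49 and 38 bases, while RRM1 and TYMP had 1 each. At least 1 CCAAT word occurred in 35.4% of 27305 promoter windows, at least 2 in 11% and at least 3 in 3.30%. An E2F word was found in the windows of DCK (1, after the start), TYMS (1) and DUT (2), against 3.21% of all windows. TTTGAA or TTTAAA, the core of the cell cycle homology region, was present in the windows of RRM1, RRM2, TK1 and DUT, against 24.7% of all windows; TTTAAA reads the same on both strands. The core of an interferon-stimulated response element (2 GAAA words set apart by any 2 bases) was in none of the 8 windows, against 3.69% of all. The E2F words and the CCAAT word share no bases in these windows. These are matches of letters only.

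The libraries were close in depth, with 71630108 to 84359044 reads in knockdown and 73256509 to 79393642 in control. SULT2B1 had 0.162, 0.284 and 0 CPM (the read count scaled to library size, with TMM factors) in knockdown and 2.07, 1.49 and 4.28 CPM in control; its edgeR adjusted p was 0.268, although the arms did not overlap. Cells with over 20% mitochondrial reads numbered 8 of 192 in knockdown and 35 of 209 in control. All 10 LNCaP and luminal markers averaged over 1 CPM in each arm, with sums of 5225 to 8049 CPM in knockdown and 7866 to 10219 CPM in control, and by edgeR KLK3 and KLK2 fell. The keratins KRT8 and KRT18 averaged 81.7 and 195 CPM in knockdown, against 46.5 and 128 CPM in control (edgeR adjusted p = 0.0930 and 0.0641), and DESeq2 called 4 of the 10 markers lower and 2 higher. Markers of blood, endothelial, fibroblast, basal and neuroendocrine cells were near 0 (11 of the 13 in the table under 1 CPM in each arm, CD14 without a read). Marker lists for cell state moved with the arm. The 11 interferon response genes summed to between 4719.8 and 5792 CPM in knockdown and between 100.5 and 116 CPM in control, and 8 of 11 rose. The 12 p53 targets (members left out) summed to between 1275 and 1416 CPM in knockdown and between 721 and 800.5 CPM in control, and 2 of 12 rose by edgeR, CDKN1A and FAS, with 9 higher at an unadjusted p under 0.05 and 6 higher by DESeq2. The 18 S phase genes summed to between 591 and 779 CPM in knockdown and between 1039.6 and 1340.4 CPM in control, and 1 of 18 fell by edgeR, SLBP, with 14 lower at an unadjusted p under 0.05 and 13 lower by DESeq2. The 10 G2 and M phase genes summed to between 450.3 and 1180.0 CPM in knockdown and between 1239 and 2871 CPM in control; none passed the edgeR test after adjustment, 7 were lower at an unadjusted p under 0.05, and 7 were lower by DESeq2. The part of these shifts in the results that follow was not tested. The comparison at like S phase score further on does not measure that part, and none was made at like G2 and M score.

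In the summed libraries RRM2 and DCK fell and RRM2B and SAMHD1 rose after knockdown (edgeR quasi-likelihood test, Benjamini-Hochberg adjusted p under 0.05). The 9 genes thus gave 2 calls in each direction, where the share of all 20326 tested genes was 0.384% for lower, 0.394% for higher and 0.777% for either. The 3 knockdown libraries lay wholly outside the range of the 3 control libraries for 8 of the 9 genes, all but RRM1, and 20.6% of all tested genes were separated in this way. Within each of the 3 batches all 9 genes differed in the same direction as over the batches together. For the 8 separated genes this follows from the separation and is no further support. RRM1, where it could have failed, had within-batch log2 differences of -0.68, -1.53 and -0.33. How many of all genes agree over the batches was not counted. The 4 calls needed all 6 libraries: with any 1 library left out, or with batch as a replicate block, none of the 9 passed edgeR's test, while 7 or 8 of the 9 had an unadjusted p under 0.05 in each of these fits and DESeq2 called 7 on all 6 libraries. DESeq2 called 1442 genes in all. At an unadjusted p under 0.05 the main edgeR fit had 1439 lower and 1300 higher of all 20326 genes. That count over all genes is not given for the fits with a library left out or with the block. In sums over cells, fewer cells with a transcript and less of it in each cell cannot be told apart; shares of cells are given further on.

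**Figure D1:**
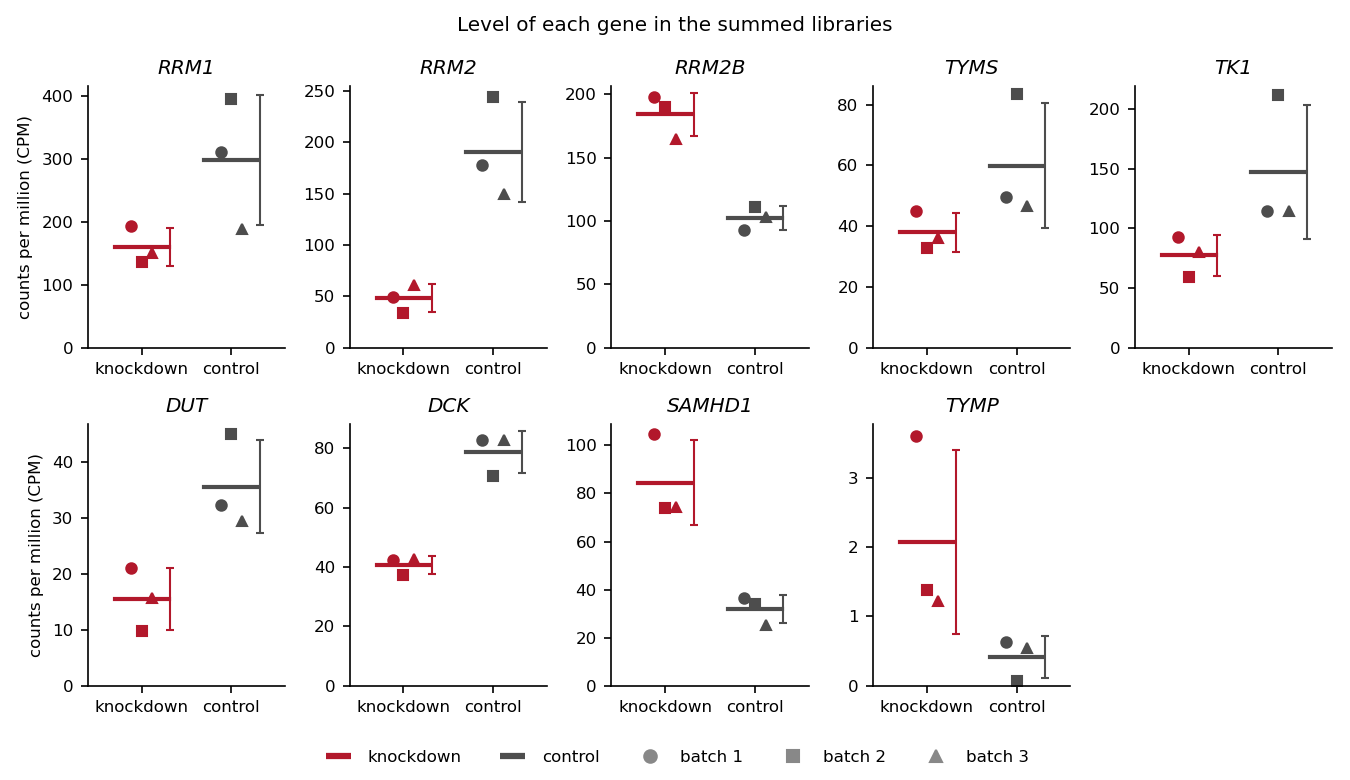
CPM (linear axis from 0, its own scale in each panel) of each gene in the 3 knockdown and 3 control libraries; symbols mark the batch, the horizontal line is the mean and the bar is the SD. The arms overlap for RRM1 alone, and DCK has the tightest groups (37.3 to 42.7 CPM in knockdown, 70.8 to 82.9 CPM in control).

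Among the reductase subunits the small subunits moved in opposite directions. RRM2 (ENSG00000171848, chr2:10120698-10131419, plus strand, GENCODE 29 on GRCh38) had 49.3, 34.0 and 61.3 CPM in the knockdown libraries of batches 1, 2 and 3, against 178, 244 and 149.6 CPM in the control libraries. Every knockdown library was below every control library. The means were 48.2 ± 13.7 CPM in knockdown and 191 ± 48.8 CPM in control (SD, n = 3; edgeR log2 fold change -1.98, SE 0.27, adjusted p = 0.0251). With batch as a replicate block the adjusted p of RRM2 was 0.153. Within batches the log2 differences were -1.83, -2.81 and -1.27, the largest in batch 2.

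RRM2B (ENSG00000048392, chr8:102204502-102239118, minus strand), the p53-induced small subunit, had 198, 189.9 and 165 CPM in knockdown, against 92.9, 111 and 103 CPM in control. The lowest knockdown library lay well above the highest control library. It averaged 184 ± 17.0 CPM in knockdown and 102 ± 9.19 CPM in control (log2 fold change 0.85, SE 0.13, edgeR adjusted p = 0.0401, and 0.152 with the replicate block). RRM1 (ENSG00000167325, chr11:4094707-4138876, plus strand), the large catalytic subunit that both small subunits need, had 194, 136 and 149 CPM in knockdown and 311, 395 and 188 CPM in control. The control library of batch 3 lay below the knockdown library of batch 1, so the arms overlapped. Its log2 fold change of -0.90 (SE 0.27) had an edgeR adjusted p of 0.203.

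In the read sums the balance of the small subunits was reversed between the arms. There were 4.01, 5.59 and 2.69 RRM2B reads for each RRM2 read in the knockdown libraries of batches 1, 2 and 3, against 0.523, 0.455 and 0.691 in the control libraries. RRM2B was thus the more abundant by reads in each knockdown library and RRM2 in each control library. On the log2 scale the ratio averaged 1.97 ± 0.53 in knockdown and -0.87 ± 0.31 in control (SD, n = 3), a difference of 2.84 (exact permutation test, two-sided, p = 0.1, the smallest that 3 against 3 allows; within batches p = 0.25, the smallest for 3 batches). Their union exon lengths are similar, 5323 bases for RRM2 and 5548 for RRM2B, so that the ratio per length is close to the ratio of reads. In means over cells the order was not reversed in every batch. The mean log2(CPM + 1) of control cells in batches 1, 2 and 3 was 3.83, 5.79 and 3.38 for RRM2. For RRM2B it was 4.33, 4.94 and 4.95, so RRM2B was the higher in control batches 1 and 3. In knockdown cells the mean was 2.13, 1.31 and 2.48 for RRM2 and 5.59, 6.18 and 5.87 for RRM2B.

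The genes of thymidylate supply were lower in knockdown without passing the test. TK1 (ENSG00000167900, chr17:78174075-78187233, minus strand), the thymidine kinase of the cytosol, had 92.7, 59.1 and 79.9 CPM in knockdown, against 114, 212 and 115 CPM in control. DUT (ENSG00000128951, chr15:48331011-48343373, plus strand), the dUTP pyrophosphatase, had 21.1, 9.84 and 15.6 CPM in knockdown, against 32.4, 45 and 29.4 CPM in control. Both were separated between the arms, with the widest gap in batch 2. The log2 fold changes were -0.93 for TK1 (SE 0.29, edgeR adjusted p = 0.215) and -1.20 for DUT (SE 0.33, edgeR adjusted p = 0.167). TYMS (ENSG00000176890, chr18:657604-673578, plus strand), thymidylate synthase, had 45, 32.7 and 36.1 CPM in knockdown, against 49.5, 83.5 and 46.7 CPM in control. Its arms came closest to each other, and without the TMM scaling factors they overlapped. The log2 fold change of TYMS was -0.66 (SE 0.27, edgeR adjusted p = 0.346).

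TYMP (ENSG00000025708, chr22:50525752-50530056, minus strand), which degrades thymidine, was read at low counts, 288, 102 and 105 reads in the knockdown libraries and 46, 5 and 42 in the control libraries. These were 3.60, 1.38 and 1.23 CPM in knockdown, against 0.626, 0.0684 and 0.541 CPM in control. Each knockdown library was above each control library, but a lone cell held 77.1% of the TYMP reads of the batch 1 knockdown library. Its log2 fold change of 2.32 had an SE of 1.03 and an edgeR adjusted p of 0.391. Without the cell with the most TYMP reads in each library, an alternative added after the data were seen, the means were 0.920 ± 0.163 CPM in knockdown and 0.232 ± 0.178 CPM in control.

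DCK and SAMHD1, which feed and drain the pools outside de novo synthesis, both passed the test. DCK (ENSG00000156136, chr4:70992538-71030914, plus strand), deoxycytidine kinase, had 42.3, 37.3 and 42.7 CPM in knockdown, against 82.9, 70.8 and 82.8 CPM in control. It averaged 40.8 ± 3.02 CPM in knockdown and 78.8 ± 6.96 CPM in control (log2 fold change -0.95, SE 0.16, edgeR adjusted p = 0.0482). The within-batch differences of -0.95, -0.91 and -0.94 on the log2 scale were nearly equal. SAMHD1 (ENSG00000101347, chr20:36889773-36951901, minus strand), the triphosphohydrolase, had 105, 73.9 and 74.5 CPM in knockdown, against 36.3, 34.0 and 25.2 CPM in control, every knockdown library above every control library. It averaged 84.4 ± 17.7 CPM in knockdown and 31.8 ± 5.89 CPM in control (log2 fold change 1.41, SE 0.22, edgeR adjusted p = 0.0470). With batch as a replicate block the edgeR adjusted p was 0.142 for DCK and 0.0977 for SAMHD1.

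Set per kilobase of union exon, the order of the levels differed between the arms. In knockdown it ran from TK1 (41.5 ± 9.09 CPM per kilobase, SD, n = 3) and RRM1 (38.2 ± 7.24) over RRM2B (33.2 ± 3.07), TYMS (15.4 ± 2.57), DCK (12.6 ± 0.935), RRM2 (9.05 ± 2.57), SAMHD1 (7.50 ± 1.57) and DUT (4.22 ± 1.53) to TYMP (0.622 ± 0.400). In control it ran from TK1 (79.0 ± 30.1) and RRM1 (71.3 ± 24.9) over RRM2 (35.8 ± 9.16), DCK (24.4 ± 2.16), TYMS (24.3 ± 8.29), RRM2B (18.5 ± 1.66), DUT (9.69 ± 2.26) and SAMHD1 (2.83 ± 0.523) to TYMP (0.124 ± 0.0905). RRM2 stood in the sixth place in knockdown and in the third in control. The neighbours TK1 and RRM1 differed by less than the larger of their SDs in both arms, as did RRM1 and RRM2B, and RRM2 and SAMHD1, in knockdown and, in control, DCK and TYMS as well as TYMS and RRM2B.

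How many cells gave any read of a gene also differed between the arms. RRM2 was read in 47.0%, 29.2% and 50.8% of the knockdown cells of batches 1, 2 and 3 (31 of 66, 19 of 65 and 31 of 61), against 64.5%, 89.4% and 77.6% of the control cells (49 of 76, 59 of 66 and 52 of 67). The exact Clopper-Pearson 95% intervals, which cover counting error only, were 18.6% to 41.8% in knockdown and 79.4% to 95.6% in control in batch 2, and overlapped only in batch 1 (34.6% to 59.7% and 52.7% to 75.1%). The mean shares were 42.3% ± 11.5 in knockdown and 77.2% ± 12.5 in control (exact permutation test, two-sided, p = 0.1, the smallest possible). The difference of -34.8 percentage points was the widest among the 9 genes.

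DUT was read in 69.7% ± 2.79 of knockdown cells and 90.1% ± 6.17 of control cells, and TK1 in 67.2% ± 3.60 of knockdown cells and 79.5% ± 4.66 of control cells (exact p = 0.1 for each, n = 3). SAMHD1 was read in 80.6% ± 4.72 of knockdown cells and 67.7% ± 4.12 of control cells, and TYMP in 19.3% ± 1.98 of knockdown cells and 7.94% ± 4.49 of control cells (exact p = 0.1 for each). For these 4 genes and RRM2 the arms did not overlap. How many of all genes separate in this way was not counted, here or for the measures over cells given below. TK1 lost the separation with a minimum of 5 reads (exact p = 0.2) and after thinning (exact p = 0.3), and SAMHD1 lost it without cells over 20% mitochondrial reads (exact p = 0.2). DCK was read in 60.0% ± 4.88 of knockdown cells and 70.7% ± 6.72 of control cells (exact p = 0.2), and RRM2B in 92.3% ± 2.45 of knockdown cells and 84.3% ± 10.6 of control cells (exact p = 0.3). The shares of TYMS and RRM1 overlapped between the arms, 72.5% ± 7.83 in knockdown and 75.4% ± 8.24 in control for TYMS and 95.8% ± 1.74 in knockdown and 93.7% ± 4.90 in control for RRM1 (exact p = 0.7 for each). For TYMS the difference was -2.85 percentage points, but -9.18 after thinning each cell to 100000 reads and -9.33 with a minimum of 5 reads (exact p = 0.2 and 0.3). The RRM1 share was slightly higher in knockdown while its summed level was lower. Within batches the 9 exact tests could not give a p below 0.25.

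**Figure D2:**
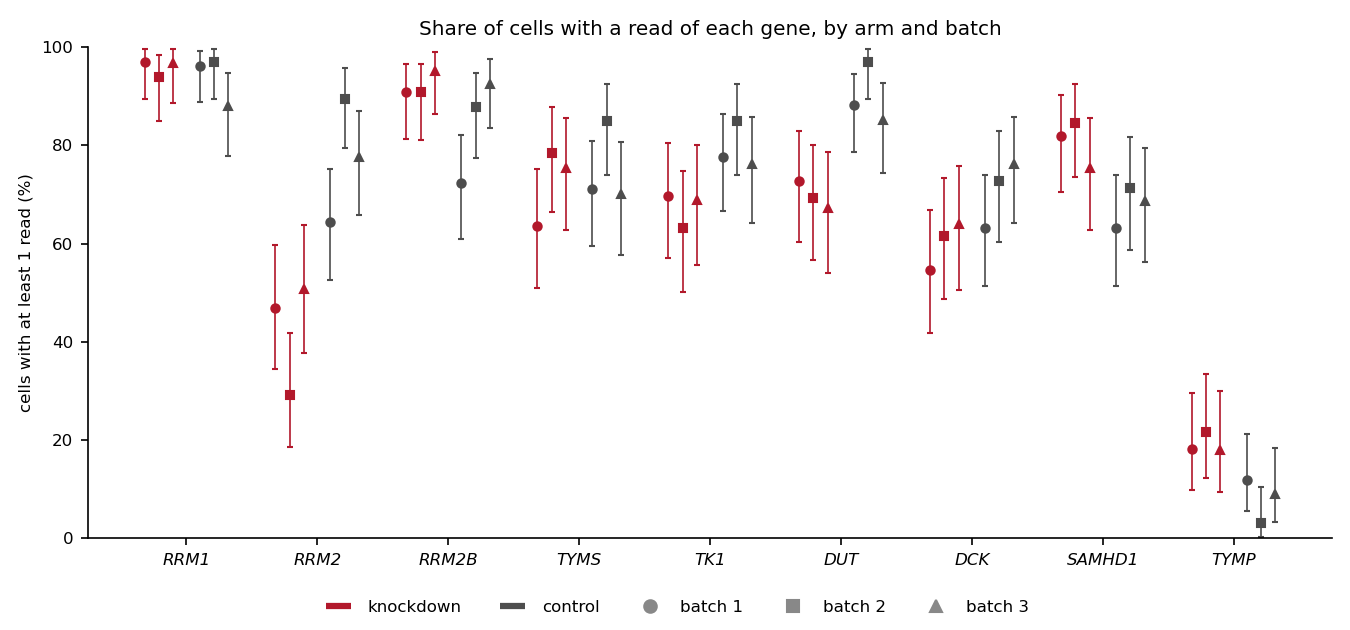
Cells in which each gene was read at least once, in % of cells, in the knockdown and control cells of each batch; symbols mark the batch and bars are exact 95% intervals. RRM2 shows the widest gap (29.2% to 50.8% in knockdown, 64.5% to 89.4% in control), and TYMP is read in the fewest cells of either arm.

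In the cells with a read, the level was separated between the arms for RRM2B, SAMHD1, TYMS, DUT and DCK. The share of all genes separated by this measure was not computed. RRM2B averaged 6.38 ± 0.38 in knockdown cells with a read and 5.65 ± 0.32 in control cells with a read (mean log2(CPM + 1), SD, n = 3), a difference of 0.73, and SAMHD1 averaged 5.53 ± 0.32 in knockdown and 4.2 ± 0.35 in control, a difference of 1.34 (exact p = 0.1 for each). RRM2B was thus at a higher level in the cells that had it, while the shares of cells with it overlapped between the arms. TYMS (difference -0.81), DUT (-1.07) and DCK (-0.16) were lower in knockdown without overlap (exact p = 0.1 for each). RRM2 in cells with a read averaged 4.64 ± 0.22 in knockdown and 5.60 ± 1.10 in control, and these overlapped (exact p = 0.4): the batch 3 control cells were at 4.36, the other control batches at 5.95 and 6.48, and the knockdown batches at 4.54, 4.48 and 4.89. Among cells with at least 5 reads RRM2 averaged 6.13 ± 0.12 in knockdown and 7.09 ± 0.65 in control, without overlap (exact p = 0.1). With that minimum of 5 reads RRM1 (difference -1.02) and TK1 (-0.60) were also separated (exact p = 0.1 for each), while DCK was not (-0.49, exact p = 0.2), so the set of separated genes depends on the minimum. With 1 read as the minimum RRM1 (difference -0.64), TK1 (-0.83) and TYMP (0.47) overlapped between the arms.

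RRM2 reads came from few cells. The 10 cells with the most RRM2 reads held 89.0%, 99.0% and 87.3% of the RRM2 reads of the knockdown libraries, against 64.2%, 55.1% and 84.6% in the control libraries, and a lone cell held 59.3% in the batch 2 knockdown library. The median cell had 0, 0 and 0.551 RRM2 CPM in knockdown and 2.23, 109.8 and 3.17 CPM in control. RRM2B reads were spread over more cells, with 44.9% to 59.3% in the top 10 cells in knockdown and 51.1% to 52.6% in control. Without the cell with the most reads of a gene in each library, the log2 ratio of mean CPM was -2.29 for RRM2, -0.96 for DCK, 0.83 for RRM2B and 1.46 for SAMHD1, and 8 of the 9 genes were still separated between the arms. The share of all genes separated after this removal was not computed.

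**Figure D3:**
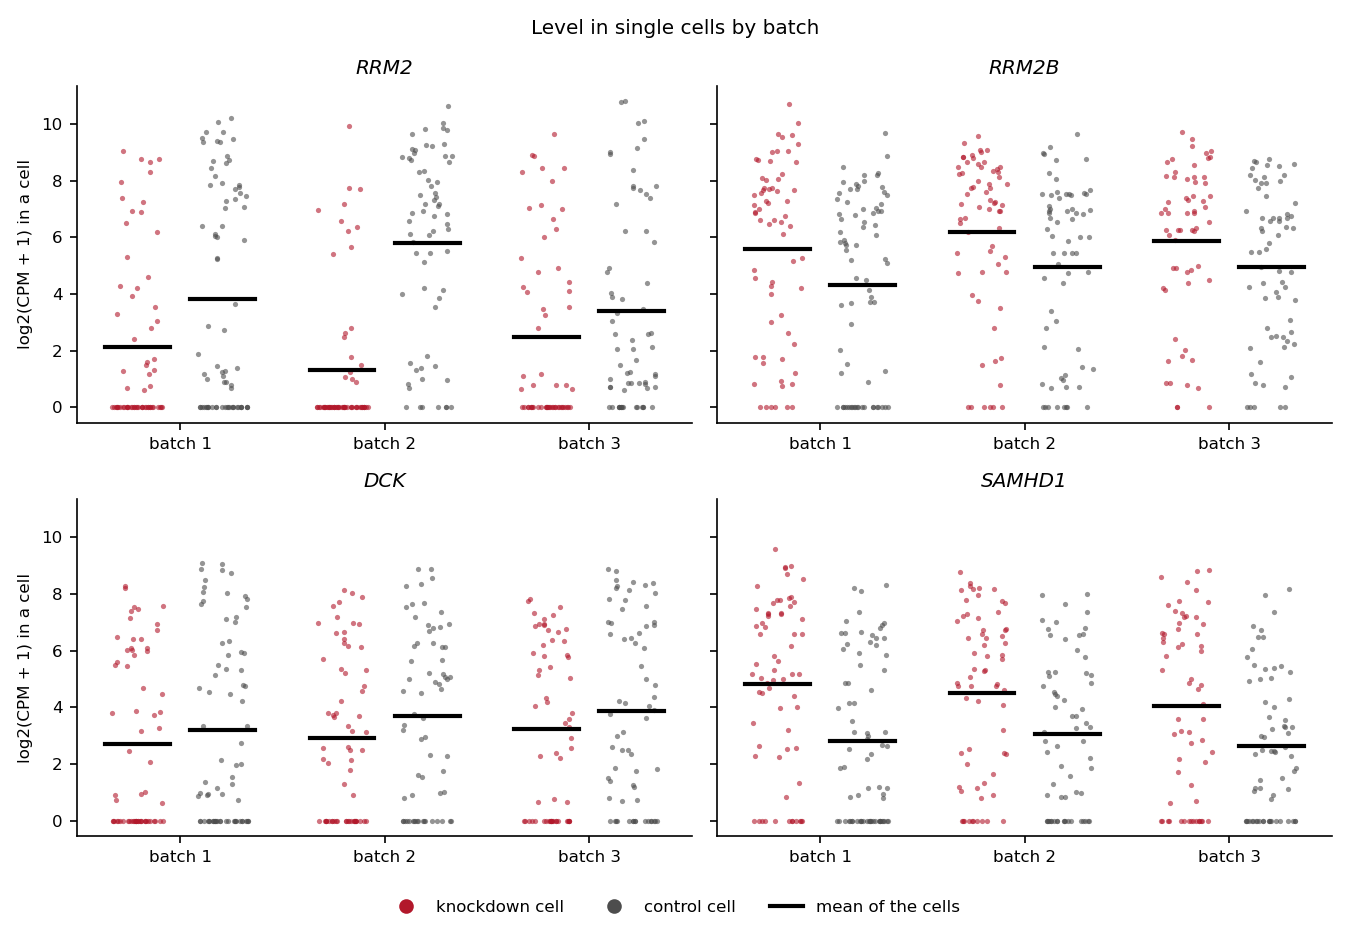
log2(CPM + 1) of RRM2, RRM2B, DCK and SAMHD1 in each cell, with knockdown cells (red) left of control cells (grey) in each batch and the mean of the cells as a black line. Most knockdown cells of batches 1 and 2 lie at 0 for RRM2, while the RRM2B and SAMHD1 means are higher in knockdown in every batch.

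Reading the genes together in the same cells, RRM2 and RRM2B were both read in 39.3% ± 11.8 of knockdown cells and 66.4% ± 16.7 of control cells. RRM2B without RRM2 was found in 53% ± 10.1 of knockdown cells (102 of 192) and 17.8% ± 8.07 of control cells (38 of 209). RRM2 without RRM2B was rare, in 6 knockdown cells and 23 control cells. TYMS was read in 85.7% ± 4.57 of knockdown cells with RRM2 and 61.9% ± 12.7 of knockdown cells without it, and in control in 80.9% ± 6.67 and 55.3% ± 1.91. TK1 showed the same contrast, with 81.6% ± 7.0 and 55.4% ± 2.86 in knockdown and 84.9% ± 5.26 and 61.0% ± 5.00 in control. In all 3 batches of both arms TYMS and TK1 were read in a larger share of cells with RRM2 than of cells without it, a difference that was not tested. This did not hold for every gene: SAMHD1 was read in 75.8% of knockdown cells with RRM2 and 84.2% of those without, and RRM1 in 93.7% of control cells with RRM2 and 95.3% of those without.

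Because RRM2, TK1 and TYMS are made mainly in S phase, the arms were also set side by side at like levels of an S phase score, the mean log2(CPM + 1) of 18 S phase genes that leaves out the 9 genes. The score is a range, not a cell type, and 23 of 401 cells lay within 0.25 of the level used, the median of control cells. Above it lay 22.7%, 13.8% and 21.3% of knockdown cells (15, 9 and 13 cells), against 43.4%, 69.7% and 37.3% of control cells (33, 46 and 25 cells). The groups did not overlap, and the means were 19.3% ± 4.77 in knockdown and 50.1% ± 17.2 in control (exact p = 0.1, the smallest possible).

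In the cells above that level, which had mean scores of 4.63 ± 0.43 in knockdown and 4.88 ± 0.40 in control, most of the genes overlapped between the arms. RRM2 was at 6.47, 2.11 and 6.61 in knockdown, against 7.52, 7.07 and 6.58 in control (mean log2(CPM + 1); exact p = 0.2). The knockdown cells of batch 2 stood apart from the other knockdown groups there, but they were only 9. TK1 averaged 6.89 ± 0.71 in knockdown and 7.05 ± 0.22 in control (exact p = 0.8), TYMS 5.59 ± 0.37 in knockdown and 5.82 ± 0.21 in control (exact p = 0.5), and DCK 5.35 ± 0.61 in knockdown and 5.13 ± 0.61 in control (exact p = 0.5). RRM2B was at 5.26 ± 0.82 in knockdown and 5.28 ± 0.30 in control (exact p = 1). The level of TYMP alone was separated there, at 0.26 ± 0.09 in knockdown and 0.06 ± 0.04 in control (exact p = 0.1), both close to 0. DCK was read in 95.2% ± 4.18 of these cells in knockdown and 84.4% ± 3.80 in control (exact p = 0.1), opposite in direction to its sum. These p-values do not show that the arms were alike, since each rests on 3 values per arm.

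In the cells at or below that level, with mean scores of 1.46 ± 0.07 in knockdown and 1.57 ± 0.18 in control, RRM2B and SAMHD1 were higher and DUT lower without overlap. Cells with over 20% mitochondrial reads, 35 of 209 in control and 8 of 192 in knockdown over both ranges, were kept. The ranges were not compared again without them. RRM2B was at 5.95, 6.22 and 5.97 in knockdown, against 3.34, 4.47 and 4.87 in control (difference 1.82). SAMHD1 was at 4.39, 4.78 and 3.94 in knockdown, against 2.03, 2.24 and 2.32 in control (difference 2.17). DUT was at 2.30, 1.87 and 1.91 in knockdown, against 2.99, 4.30 and 3.04 in control (difference -1.41; exact p = 0.1 for each of the 3 genes). RRM2 overlapped in these cells, at 1.13 ± 0.26 in knockdown and 1.78 ± 0.96 in control (exact p = 0.4), and so did RRM1, TK1, TYMS, DCK and TYMP. The mean of DCK was not lower in knockdown in either range, with differences of 0.22 above the level and 0.23 below it. RRM1 and TYMS had differences of 0.58 and 0.31 below the level. The sums of all 3 genes were lower in knockdown (DCK log2 fold change -0.95), but sums are another measure than means over cells. Over all cells the mean log2(CPM + 1) of DCK was 2.71, 2.91 and 3.23 in knockdown, against 3.19, 3.69 and 3.88 in control. For TYMS it was 3.15, 3.38 and 3.32 in knockdown, against 3.73, 4.97 and 3.50 in control. For RRM1 it was lower in knockdown in batch 2 alone (5.73, against 7.53 in control). Whether the arms differ more below the level than above it was not tested.

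**Figure D4:**
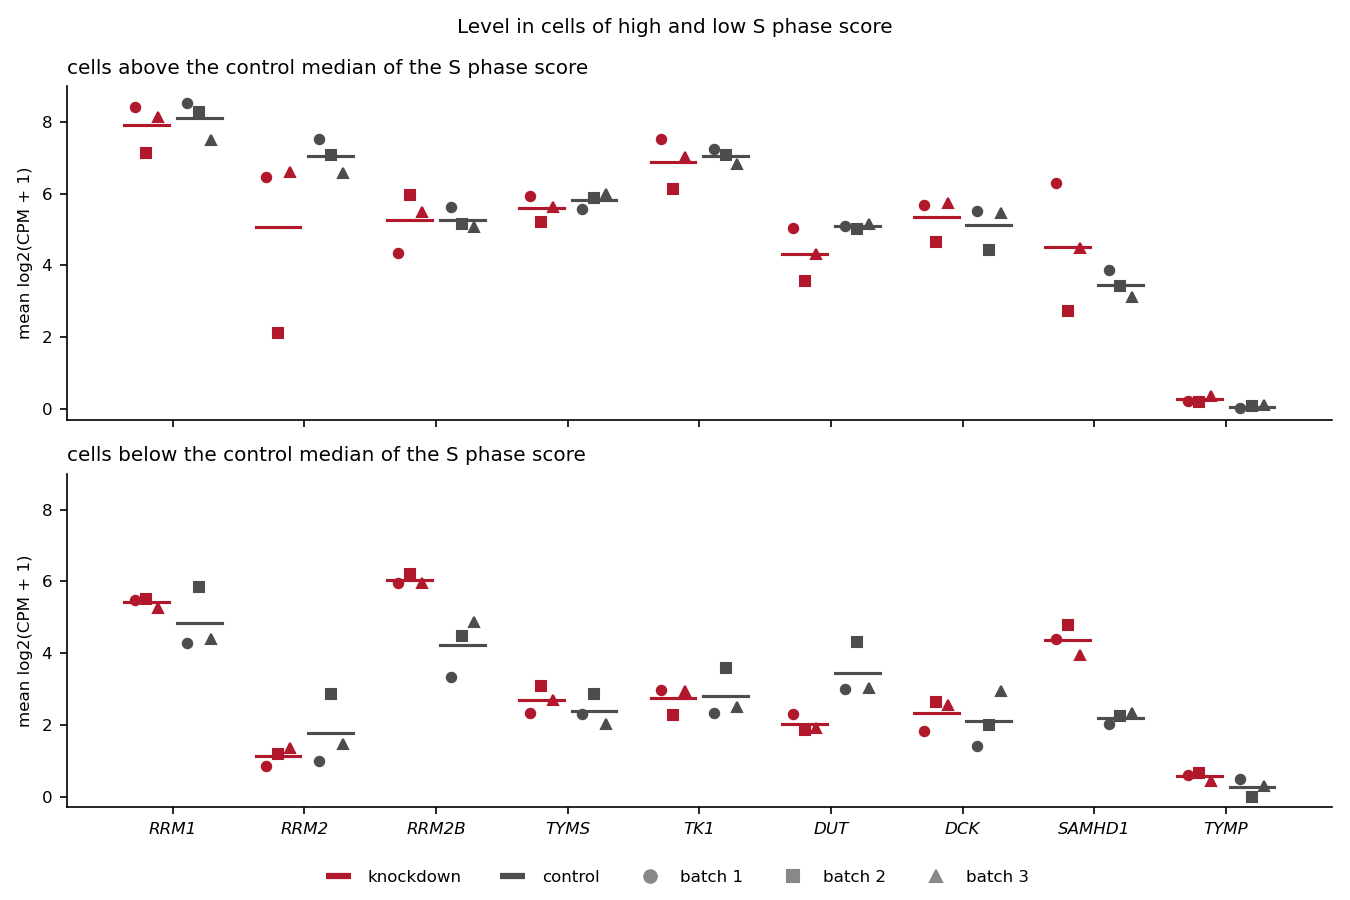
Mean log2(CPM + 1) of each gene in cells above (top) and at or below (bottom) the control median of the S phase score; symbols mark batches, lines are means of the 3 batches, knockdown left of control. RRM2B and SAMHD1 separate in the bottom panel (RRM2B 5.95 to 6.22 in knockdown, 3.34 to 4.87 in control) and overlap in the top panel.

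Across cells the genes fell into those that followed the cell cycle markers and those that did not. Correlations are Pearson's r of log2(CPM + 1) over the 61 to 76 cells of an arm and batch, averaged over the 6 such groups; cells of a group share a library preparation, and counts are sparse. RRM2 had a mean r of 0.75 with the G2 and M score and 0.63 with the S phase score, and 0.59 with TK1, 0.49 with TYMS and 0.46 with RRM1. The p53 score followed RRM2B most, with a mean r of 0.40 (0.28 to 0.54 over the 6 groups), while RRM2B and RRM2 had a mean r of 0.03. SAMHD1 and TYMP had their highest mean r among the 4 scores with the interferon score, 0.27 (0.16 to 0.44) and 0.23 (0.07 to 0.44). Depth gave weaker values, from -0.11 for TYMP to 0.17 for RRM1. The number of genes with a read had a mean r of 0.39 with RRM2B, 0.37 with RRM1 and TK1, 0.34 with DCK and 0.32 with TYMS. It was 0.26 with SAMHD1, 0.23 with DUT, 0.22 with RRM2 and -0.03 with TYMP. For RRM2B and SAMHD1 this was close to their mean r with the p53 and the interferon score.

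**Figure D5:**
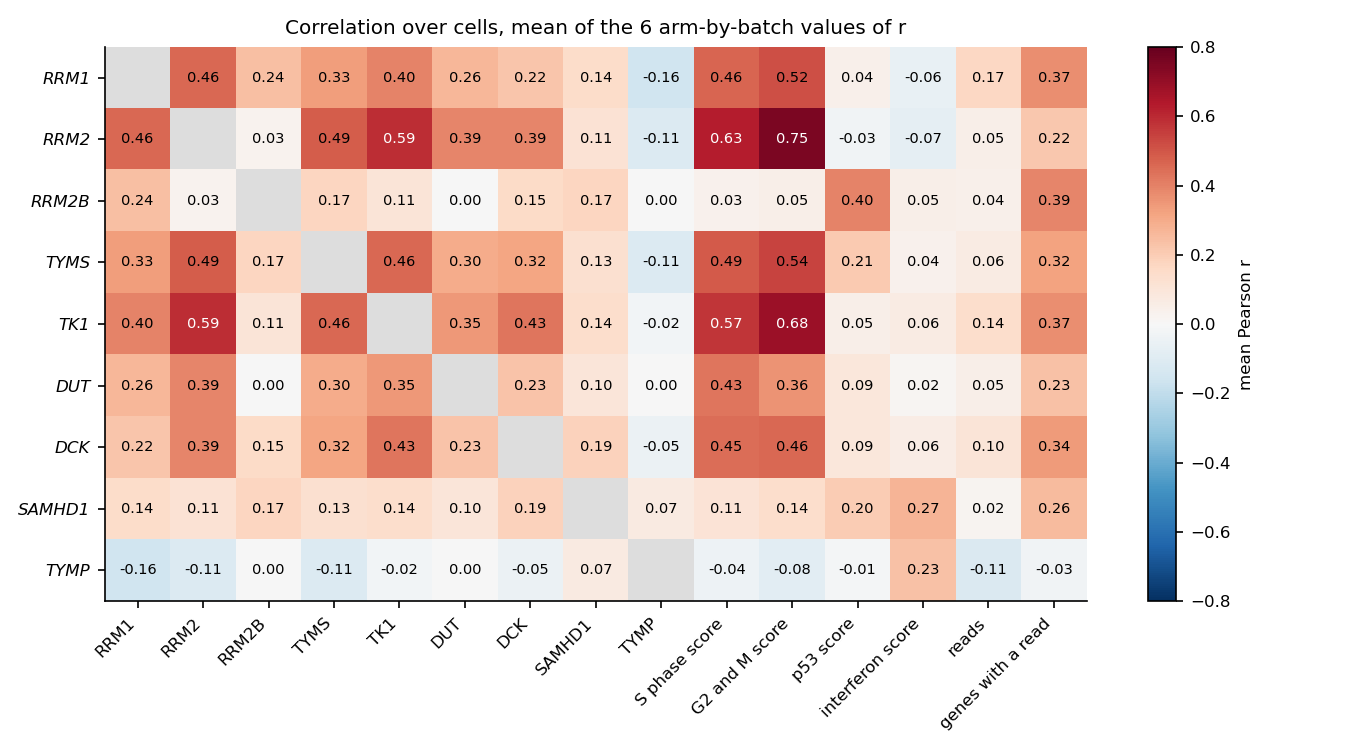
Pearson's r over cells between each gene (rows) and the other genes, 4 marker scores, reads per cell and genes with a read (columns), as the mean of the 6 arm-by-batch groups; red is positive, blue negative, grey the gene itself. RRM2, TK1, TYMS, RRM1, DUT and DCK share positive values with the S phase score (0.43 to 0.63), and RRM2B stands out in the p53 column (0.40).

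Among 11928 genes with a read in at least 20% of cells, those most like RRM2 by mean r were SPC25 (0.69), NUSAP1 (0.68), NCAPG (0.68), UBE2C (0.68) and CENPU (0.67). Their log2 fold changes in the summed libraries lay between -1.82 and -1.11, and none passed edgeR's adjusted test, with CENPU at 0.115 and NUSAP1 at 0.0836. Those most like RRM2B were TRIAP1 (0.46), CCNG1 (0.35), PDHA1 (0.34), CFL1 (0.34) and ATP6V1A (0.34). Those most like TYMP were PPL (0.23), RIGI (0.22), OASL (0.22), SLC37A1 (0.19) and OGFOD2 (0.19), weak values from a gene that most cells lacked.

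Cells with and without a read of a gene were compared on the same scores within each arm. Knockdown cells with a TYMP read had a mean interferon score of 4.86, 5.01 and 6.03 in batches 1, 2 and 3 (12, 14 and 11 cells), against 4.09, 3.83 and 3.33 in knockdown cells without a TYMP read. Knockdown cells with a SAMHD1 read had 4.48, 4.19 and 4.09, against 3.11, 3.52 and 2.98 in those without. The score was higher with a read in all 3 batches for both genes. Knockdown cells with an RRM2B read had a lower interferon score than the few without (difference -1.33 ± 0.87). In control cells the differences averaged 0.29 for TYMP, from only 9, 2 and 6 cells with a read in batches 1, 2 and 3. For SAMHD1 they averaged 0.21 and were 0.33, 0.29 and 0.03 by batch. For RRM2B the p53 score was higher in cells with a read in all 3 batches of each arm, by 1.32 ± 0.40 in knockdown and by 0.72 ± 0.34 in control (SD, n = 3). Read depth differed in either direction. Median reads were 1236090 with and 1174720 without RRM2B in knockdown cells, and 1122960 with and 1001280 without it in control cells. In knockdown cells they were 1220710 with and 1197420 without SAMHD1, and 1141920 with and 1258070 without TYMP. The number of genes with a read was not compared between these cells. These are descriptions with no test.

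The rest of nucleotide metabolism was read from lists of its genes. Of 82 listed genes of purine and pyrimidine synthesis, the folate cycle, nucleotide kinases, breakdown, transport and regulators, 78 were tested, and by edgeR 1 was lower and 0 were higher after adjustment, where 0.777% of all tested genes were called. At an unadjusted p under 0.05 there were 15 lower and 6 higher, against 1439 lower and 1300 higher of all 20326, and DESeq2 called 8 lower and 3 higher, against 782 and 659. The median log2 fold change of the 78 was -0.14, against 0.0063 over all tested genes. The called gene was CMPK1, the kinase of CMP and UMP, at 98.0 ± 1.96 CPM in knockdown and 192 ± 11.1 CPM in control (log2 fold change -0.97, SE 0.11, edgeR adjusted p = 0.0118, and 0.0844 with the replicate block). Its libraries held 96.3, 100.1 and 97.4 CPM in knockdown, against 185, 185 and 204 CPM in control, a spread like that of DCK. The CMPK1 call was also lost without knockdown libraries 1, 2 or 3 or control library 3, each in turn.

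Genes named by size of change in each list did not pass. PPAT, the first enzyme of purine synthesis, was at 111 ± 22.1 CPM in knockdown and 221 ± 8.65 CPM in control (edgeR adjusted p = 0.0517), and PAICS, a later step, at 431 ± 63.8 CPM in knockdown and 584 ± 40.4 CPM in control (0.193). CMPK2, a mitochondrial nucleotide kinase known as interferon-inducible, was at 12.1 ± 4.07 CPM in knockdown and 0.740 ± 0.549 CPM in control (edgeR adjusted p = 0.0961). E2F8 and E2F7, repressors that act on S phase genes, were at 2.01 ± 0.802 and 3.63 ± 2.95 CPM in knockdown, against 12.6 ± 2.18 and 17.1 ± 4.86 CPM in control (edgeR adjusted p = 0.0517 and 0.156). ADA, UCK1, NT5C3A, UMPS, DHODH and SLC29A2 had log2 fold changes between -1.52 (ADA) and 1.00 (UCK1), with edgeR adjusted p-values from 0.167 (UCK1) to 0.877 (DHODH).

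Some counts may be shared with other genes, since the strand setting of the counting is not given in the sources used here. TYMS overlaps ENOSF1 on the opposite strand by 3255 bases, and ENOSF1 was at 61.5 ± 10.3 CPM in knockdown and 46.2 ± 1.30 CPM in control (edgeR adjusted p = 0.364), opposite in direction to TYMS. DCK overlaps MOB1B on the same strand by 29912 bases, and MOB1B was at 82.8 ± 15.3 CPM in knockdown and 117 ± 24.6 CPM in control (edgeR adjusted p = 0.350), in the direction of DCK. TYMP shares 347 bases with ODF3B and 688 with a SCO2 entry that is absent from the count table. The SCO2 entry in the count table does not reach TYMP. All these overlaps are of whole gene spans with introns, so the bases do not measure how many reads are shared. Reads of TYMS, DCK and TYMP are uncertain to an extent that was not measured. On the same strand AC007240.1 overlaps RRM2 by 8681 bases and was not analysed here. TLDC2 overlaps SAMHD1 on the opposite strand by 4463 bases and had 8 reads in all cells. RRM2 and DUT have processed pseudogenes that can take some of their reads.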

How the data were processed

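The deposited table holds raw counts of reads for each gene in each cell, whole numbers without molecular identifiers and not normalized by the authors, judged from the values themselves. The submitters' processing notes list build GRCh38.p3 and the tools edgeR 3.2.2, HTSeq 0.6.1, TopHat2 2.1.0 and FastQC 0.11.3, without their order; annotation release and strand setting: not given in the sources used here. Capture sites without exactly 1 cell and dye-stained dead cells were excluded before sequencing, per the labels' protocols; no doublet caller was run. Of 414 samples, 401 single cells with a matching column were used; 6 libraries of several cells, 1 repeat library, 2 first runs, 4 cells without a column and 4 value columns were left out. No cells had identical counts.

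Counts were summed by arm and batch and tested with the edgeR 4.0.16 quasi-likelihood test (R 4.3.3, TMM, filterByExpr, robust, no covariates, Benjamini-Hochberg over 20326 genes). Alternatives used limma 3.58.1 and DESeq2 1.42.0. The common dispersion was 0.497. The code of the edgeR test was also run on simulated counts, with a much smaller dispersion and with large changes in well-read genes only. That run does not show how well the test works on these data. CPM of a cell is over its own total. For shares, ratios and scores each of the 6 libraries gave 1 value, and the arms were tested with an exact permutation test, two-sided (Python 3.11.15, scipy 1.17.1). The labels' word batch pairs the libraries; same-numbered libraries' deviations correlated at 0.0551, -0.0037 and -0.0019. Names come from the gene name table (34891 genes) and GENCODE 29 (257); 987 had none. Exon lengths are GENCODE 29 unions.

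The genes and lists were chosen with earlier results of these data known, so their choice is no independent support. Named besides the 9 genes are SULT2B1, pathway-list genes past an adjusted p of 0.05, the 2 in each list averaging at least 5 CPM with the largest change, the 5 genes most correlated with RRM2, RRM2B and TYMP, and overlapping genes; some genes that this rule names are not reported here. Single marker genes named beside a count were chosen after their values were seen.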

Additional observations from a re-analysis of the deposited data

How the results depend on the processing

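Of the 9 genes, 4 passed an adjusted p of 0.05. DESeq2 size factors in edgeR, no filter on low counts and leaving out cells with over 20% mitochondrial reads also gave 4 (SAMHD1 at 0.04998 in the last), DESeq2 gave 7 (adding RRM1, TK1 and DUT), and 0 passed with batch as a replicate block, with equal weight per cell (limma) or with any 1 library left out (0 to 0). All 9 kept their direction in the 12 alternatives. Most of these refit the same libraries or leave out 1. For genes whose libraries do not overlap, the direction was thus largely fixed beforehand. Among all genes 158 passed; DESeq2 gave 1442, no filter 309, the replicate block 38, equal weight per cell 65, and leaving out 1 library 46 to 69. The RRM1 share of cells was 1.10 percentage points lower in knockdown without replicate 3 (a difference of -1.10, with -1.10 to 4.79 over the batches left out) and higher with all batches; the cause was not tested. No other listed result changed its direction. Exact tests within batches, the paired form for ratios and shares, can reach no p under 0.25. Fits without a library assume that the remaining libraries of that arm vary like the other arm. With 3 libraries per arm, TYMP at 5 to 288 reads per library was the least certain gene.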
